A study of Saccharomyces cerevisiae with 4 samples.

Results

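GAL3, SNQ2, ENV9 and SRL1 are 4 of the 6002 nuclear protein-coding genes of budding yeast with a known strand, and they flank strong Swc4 peaks that lie away from ribosomal protein genes. They were chosen from peak strength in these same files, so fold, q-value and rank are given as a description and were not tested. A peak was assigned to a gene when it overlapped the gene or the 1000 bp upstream of its coding start. The groups are yaf9d, in which the titles name a deletion of YAF9, and wild_type, with 2 chromatin immunoprecipitation libraries each. All 4 libraries came from untreated BY haploid cells grown in YPD, a rich medium, to mid-log phase, and in all of them Swc4 carried 13 myc copies and was precipitated through that tag. No library from untagged cells and no expression data are analysed here. Separate cultures are not stated in the labels, so replicate spread here could be technical only.

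Swc4 works in SWR1, the remodeler that places histone variant H2A.Z in promoter nucleosomes, and in NuA4, which acetylates histone tails. Yaf9 sits in both complexes too and reads acylated lysines of histone H3. Gal3 senses galactose and then binds the repressor Gal80, which frees the activator Gal4. Snq2 is an ABC transporter of the plasma membrane that exports many drugs, and its gene is a target of the regulators Pdr1 and Pdr3. Env9 is an oxidoreductase linked to lipid droplet morphology. Srl1 is a cell wall mannoprotein whose gene was named for suppressing the lethality of a rad53 mutant.

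The lists held 616 and 1139 nuclear peaks in yaf9d replicates 1 and 2, and 884 and 704 in wild_type replicates 1 and 2. Median folds were 2.50 and 1.80 in yaf9d, and 1.83 and 1.92 in wild_type. A fold is the authors' enrichment at the peak's highest point, the summit, over a local background, and it belongs to its own list. Summit pileups, the number of fragments stacked at the summit, were recovered from each fold and its p-value. Their medians were 132 and 146 in yaf9d, and 131.5 and 126 in wild_type. Medians of the background recovered with them were 46.5 and 71.3 in yaf9d, and 64.5 and 56.2 in wild_type. Neither is a measure of sequencing depth, which the lists do not give.

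Both regions carried a strong peak in every library, and 4 of 4 genes had a peak in each list. The share of all protein-coding genes with one was 17.1% and 27.2% in yaf9d replicates 1 and 2, and 25.3% and 20.9% in wild_type replicates 1 and 2. It was 7.78% for a peak in all 4 libraries. These shares stand beside genes picked for their peaks, and nothing is read from the contrast. The 4 genes share 2 strong peaks, so they are not 4 independent observations.

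The first region lies on chromosome IV. Its peaks ran from 464770 to 465597 and from 464755 to 465568 in yaf9d replicates 1 and 2, and from 464746 to 465528 and from 464776 to 465536 in wild_type replicates 1 and 2. The genome build of the lists is not given in the sources used here, and distances to genes were taken from RefSeq assembly R64. GAL3 and SNQ2 point the same way, with 922 bp between the end of GAL3 and the start of SNQ2, and YDR010C, an open reading frame of 333 bp with no standard name, runs against them in that gap.

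The GAL3 promoter did not hold this peak, which lay downstream of GAL3 and upstream of SNQ2. The strong peak covered the last 227 and 242 bp of GAL3 in yaf9d replicates 1 and 2, and the last 251 and 221 bp in wild_type replicates 1 and 2. Its summit lay past the end of GAL3, by 336 and 337 bp in yaf9d and by 324 and 318 bp in wild_type. The 1000 bp upstream of GAL3 were free of any called peak in both yaf9d libraries and in wild_type replicate 1. In wild_type replicate 2 they were touched over 21 bp by a peak of fold 1.78, from 461835 to 462454, whose summit lay 1143 bp upstream of GAL3, at the neighbouring gene TRP1. That peak ranked 438 of 704 in its list. A locus without a called peak is not shown to be unbound.

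SNQ2 had the strong peak well upstream. The summit lay 587 and 586 bp before the SNQ2 coding start in yaf9d replicates 1 and 2, and 599 and 605 bp before it in wild_type replicates 1 and 2. The same summits fell inside YDR010C, 51 and 50 bp from its start codon in yaf9d, and 63 and 69 bp in wild_type. The 4 positions spanned 19 bp. In yaf9d replicate 2 alone a further peak was called inside SNQ2, from 465959 to 466420, with fold 1.68 and rank 701 of 1139.

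The second region lies on chromosome XV between ENV9 and SRL1, which are transcribed away from each other with 882 bp between their coding starts. Its peaks ran from 796743 to 797354 and from 796657 to 797345 in yaf9d replicates 1 and 2, and from 796569 to 797329 and from 796604 to 797342 in wild_type replicates 1 and 2. Summits lay 371 and 377 bp upstream of ENV9 in yaf9d, and 383 and 380 bp upstream of it in wild_type. From SRL1 the same summits were 512 and 506 bp upstream in yaf9d, and 500 and 503 bp in wild_type. The 4 positions spanned 12 bp, in a single intergenic stretch that serves both genes, and the peaks do not say which gene they belong to.

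SRL1 also had a weak peak in its coding sequence in yaf9d replicate 2 alone. It ran from 797759 to 798237, with fold 1.24 and rank 1128 of 1139. The same peak touched the 1000 bp upstream of ENV9 over 35 bp, with its summit 1131 bp upstream of ENV9. The recovered background there was 246, against 52.8 under the strong peak of the same list 413 bp away. This low fold stood on a pileup of 307 fragments.

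**Figure D1:**
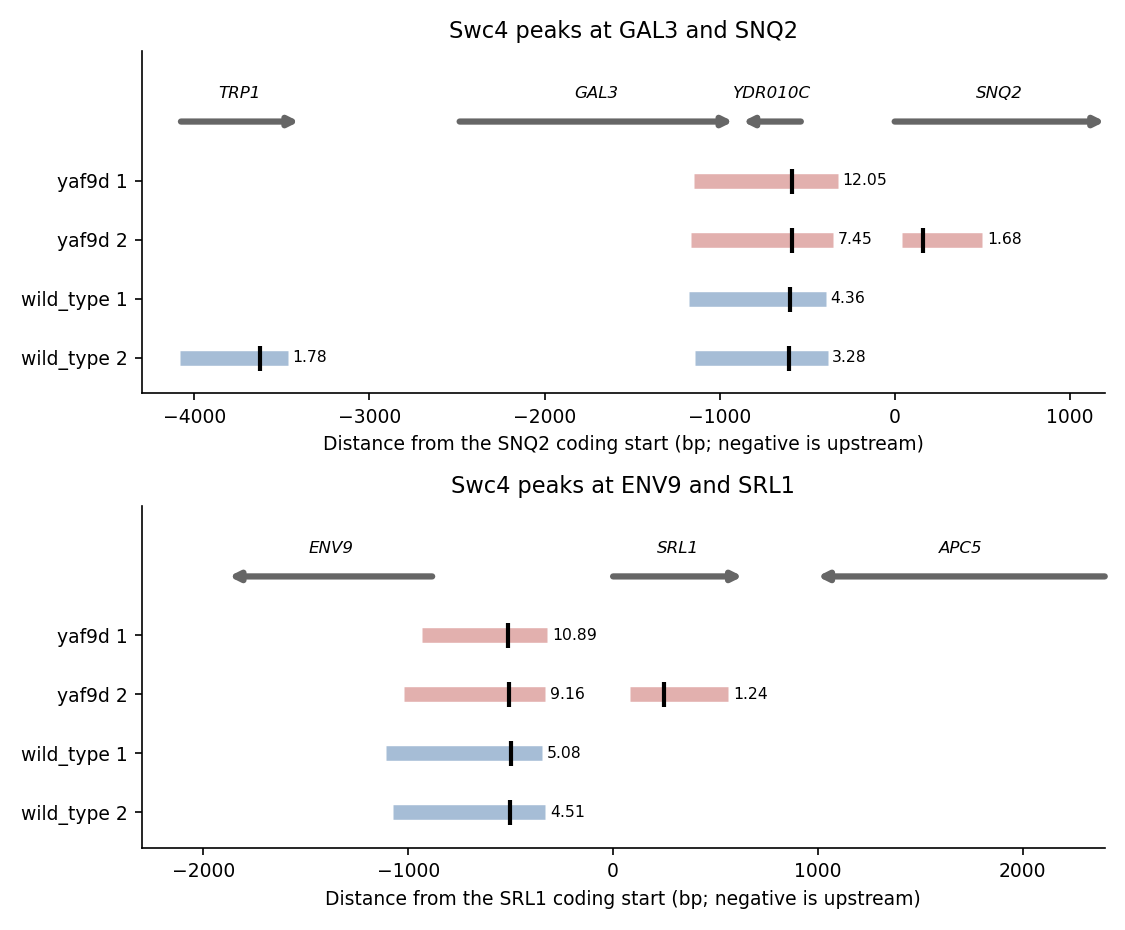
Peaks called in each library in the windows of GAL3 and SNQ2 (top) and of ENV9 and SRL1 (bottom), against distance in bp from the SNQ2 or SRL1 coding start. Bars are peak intervals, black ticks are summits, numbers are the authors' folds, and arrows are protein-coding genes, cut at the plot edge for SNQ2 and APC5. The 4 summits of each strong peak line up within 19 and 12 bp, and the upper peak sits past the end of GAL3.

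Position itself did not choose the genes, though it was examined after the peaks were known. It is not independent of peak strength, which did choose them, and spans were not compared at equal strength. Of the loci formed by merging overlapping peaks, 251 were called in all 4 libraries, and 218 of these had a single peak in each library. Their summits spanned a median of 37.5 bp, with a lower quartile of 18.25 bp. A span of 19 bp or less, as at GAL3 and SNQ2, was found at 28.9% of them. A span of 12 bp or less, as at ENV9 and SRL1, was found at 11.9%. Summits this well aligned were thus present at many other shared loci.

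**Figure D2:**
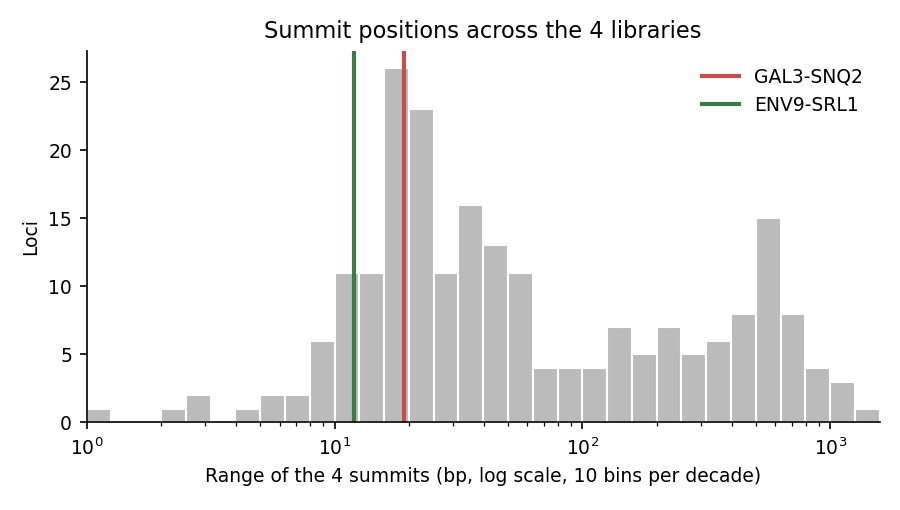
Number of loci (of 218 with 1 peak in each of the 4 libraries) by the range of their 4 summit positions, in bp on a log axis. Vertical lines mark 19 bp at GAL3-SNQ2 and 12 bp at ENV9-SRL1, both below the median of 37.5 bp.

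The outline of the GAL3 and SNQ2 peak was almost the same in all libraries. The 753 bp common to the 4 peaks made up 88.4% of the 852 bp they covered together, where the median of the 218 loci was 59.4%. A share at or above 88.4% was found at 2 of 218 loci (0.917%), the region itself among them. At ENV9 and SRL1 the common part was 587 of 786 bp, or 74.7%, and 17.4% of loci reached that share. The loci were not matched for peak width or strength, and both regions were chosen for strength.

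Peaks were wider in yaf9d in the first region and narrower in yaf9d in the second. At GAL3 and SNQ2 the peaks were 828 and 814 bp wide in yaf9d, and 783 and 761 bp in wild_type. At ENV9 and SRL1 they were 612 and 689 bp wide in yaf9d, and 761 and 739 bp in wild_type. Genotypes did not overlap in either region. Of the 218 loci, 11% had both yaf9d peaks wider than both wild_type peaks and 17% had both narrower. List medians were 438 and 407 bp in yaf9d, and 447.5 and 611.5 bp in wild_type. The edge facing SRL1 moved by 25 bp over the 4 libraries and the edge facing ENV9 by 174 bp. At the other region the edge facing SNQ2 moved by 69 bp and the edge over GAL3 by 30 bp.

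Both peaks leaned toward SNQ2 and SRL1. In percent of peak width from the left edge, the summit stood at 68.0 and 71.1 in yaf9d, and at 73.4 and 70.8 in wild_type, in the GAL3 and SNQ2 region. The ENV9 and SRL1 values were 68.9 and 74.6 in yaf9d, and 79.9 and 77.1 in wild_type. Summits on the same side of the middle in all libraries, and at least this far off it, were found at 12.8% of loci for the first region and 11% for the second.

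Distance to a gene start lay on either side of the median of other loci. From the median summit to the nearest coding start downstream of it were 593 bp for SNQ2 and 378.5 bp for ENV9, where the median of the 218 loci was 487.5 bp. Distances as long or longer were found at 39.4% of loci for SNQ2 and 63.8% for ENV9. A tRNA gene was no nearer than 23471 and 57015.5 bp. The nearest ribosomal protein gene was RPL4B at 6527 bp from the first region and RPL33B at 17766.5 bp from the second.

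Enrichment as listed at the SNQ2 side was higher in yaf9d than in wild_type. The fold at the GAL3 and SNQ2 summit was 12.1 in yaf9d replicate 1 and 7.45 in yaf9d replicate 2. It was 4.36 in wild_type replicate 1 and 3.28 in wild_type replicate 2. The −log10 q-values given by the authors were 359 and 239 in yaf9d, and 67.1 and 38.4 in wild_type. Each listed yaf9d value lay above each wild_type value. Listed values are not on a common scale across lists. Of the 251 shared loci, 48.6% had both listed yaf9d folds above both wild_type folds.

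Genotypes were set apart by pileup, while their backgrounds overlapped. At this summit 521 and 480 fragments were recovered in yaf9d, with 95% Poisson intervals of 477 to 568 and 438 to 525. In wild_type there were 221 and 180, with intervals of 193 to 252 and 155 to 208. Background was 42.3 and 63.5 in yaf9d, and 49.9 and 54.2 in wild_type. Pileups were higher in both yaf9d libraries at 57.7% of the 248 shared loci with a recovered value. Replicates of each genotype overlapped in their pileup intervals, while their fold intervals did not. The fold intervals were 11.04 to 13.1 and 6.80 to 8.15 in yaf9d, and 3.81 to 4.97 and 2.82 to 3.80 in wild_type. Intervals cover counting error alone and take the background as exact.

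ENV9 and SRL1 showed the same order in listed values, with the same limit of scale. The fold was 10.9 in yaf9d replicate 1 and 9.16 in yaf9d replicate 2, where it led the list. In wild_type it was 5.08 and 4.51. The −log10 q-values were 272 and 285 in yaf9d, and 78.8 and 66.4 in wild_type. Pileups were 418 and 492 in yaf9d, with intervals of 379 to 460 and 449 to 537, and 221 and 209 in wild_type, with intervals of 193 to 252 and 182 to 239. Background was 37.5 and 52.8 in yaf9d, and 42.7 and 45.6 in wild_type. Wild_type replicate 1 had 221 fragments in both regions. In yaf9d the SNQ2 summit had more fragments in replicate 1 and fewer in replicate 2 than the summit between ENV9 and SRL1.

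**Figure D3:**
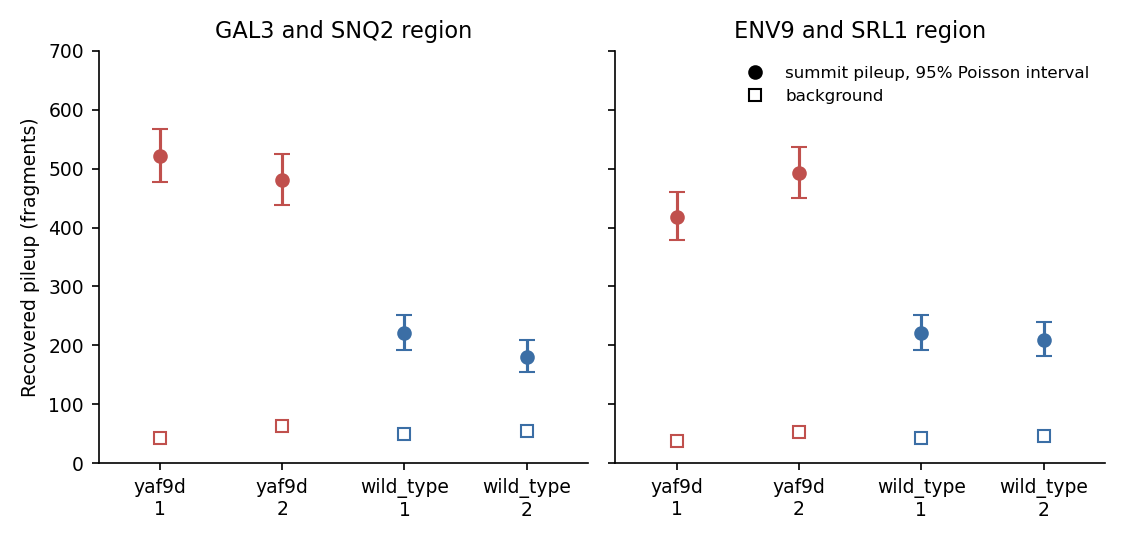
Fragments recovered at the summit (circles, bars are 95% Poisson intervals for counting error) and local background (open squares) for each library, with yaf9d in red and wild_type in blue. Pileups are 418 to 521 in yaf9d and 180 to 221 in wild_type, while backgrounds stay between 37.5 and 63.5.

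Pileups and folds are not on a common scale across lists. The median pileup of the shared loci with a recovered value was 210 in each yaf9d library, and 151.5 and 163.5 in wild_type. Set over that median, the GAL3 and SNQ2 pileup was 2.48 and 2.29 times as high in yaf9d, and 1.46 and 1.10 times in wild_type. For ENV9 and SRL1 the ratios were 1.99 and 2.34 in yaf9d, and 1.46 and 1.28 in wild_type. Background over its own median stayed between 0.79 and 1.15 in all cases.

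Folds were put on a relative scale in the same way, as log2 of the fold over the median fold of the 251 shared loci in that list. Those medians were 3.70 and 3.18 in yaf9d, and 2.39 and 2.66 in wild_type, which is an offset of 0.45 on the log2 scale between genotypes. At GAL3 and SNQ2 the relative fold was 1.70 and 1.23 in yaf9d, and 0.87 and 0.30 in wild_type. The mean was 1.47 ± 0.34 in yaf9d and 0.59 ± 0.40 in wild_type (SD, n = 2 each), a difference of 0.88. At ENV9 and SRL1 it was 1.56 and 1.52 in yaf9d, and 1.09 and 0.76 in wild_type. That mean was 1.54 ± 0.025 in yaf9d and 0.92 ± 0.23 in wild_type (SD, n = 2 each), a difference of 0.62. These means describe folds that served to pick the regions.

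Both regions were higher in each yaf9d library than in each wild_type library on this scale. The same held at 34 of 251 shared loci (13.5%), and the reverse at 29.5%. Outside ribosomal protein genes it held at 28 of 168 loci (16.7%). On the folds as listed, without scaling, 48.6% of shared loci were higher in both yaf9d libraries and 5.18% lower. The yaf9d minus wild_type difference placed GAL3 and SNQ2 at 5 and ENV9 and SRL1 at 19 of 251. The regions were picked with these folds known, so no test was made. An exact permutation of 2 against 2 libraries could not give a p below 0.333.

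**Figure D4:**
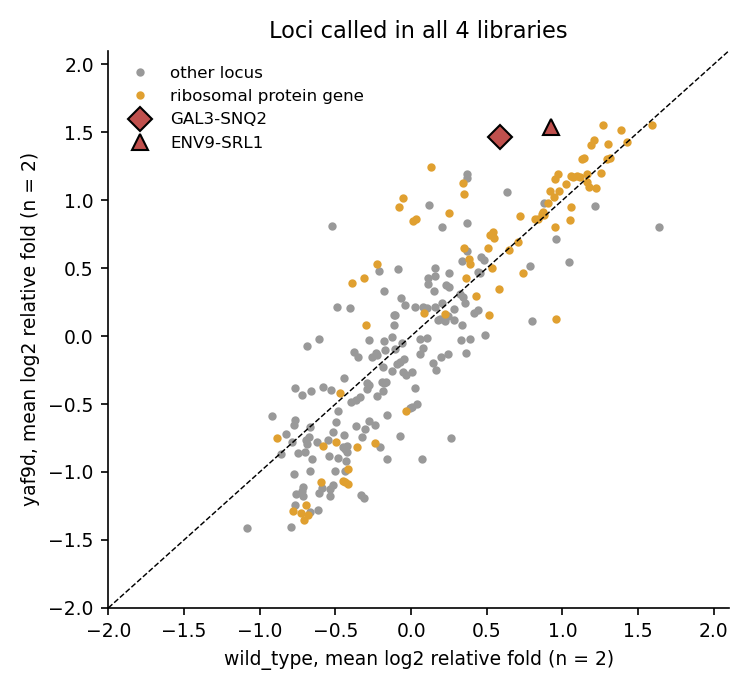
Mean log2 relative fold in yaf9d (vertical) against wild_type (horizontal), n = 2 each, for the 251 loci called in all 4 libraries; the dashed line marks equal values. The diamond and the triangle, at 1.47 and 1.54 in yaf9d and 0.59 and 0.92 in wild_type, lie above the line, level with the highest ribosomal protein loci in yaf9d.

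Within their lists the regions stood among the peaks of ribosomal protein promoters. At those promoters the median fold was 7.95 and 4.95 in yaf9d, and 3.63 and 4.48 in wild_type. GAL3 and SNQ2 exceeded that median in 3 libraries and fell short of it in wild_type replicate 2, with 3.28. ENV9 and SRL1 exceeded it in all 4, by the smallest amount in wild_type replicate 2. Ranks by fold for GAL3 and SNQ2 were 7 of 616 and 6 of 1139 in yaf9d, and 34 of 884 and 92 of 704 in wild_type. For ENV9 and SRL1 they were 14 and 1 in yaf9d, and 14 and 55 in wild_type. Ranks by −log10 q were 5 and 5 in yaf9d and 25 and 90 in wild_type for the SNQ2 peak, and 14 and 4 in yaf9d and 15 and 58 in wild_type for the SRL1 peak. Ranks in lists of different length show no change between them. Among the 251 shared loci, a set of equal size in every list, SNQ2 stood at 7 and 6 in yaf9d and at 32 and 81 in wild_type. SRL1 stood there at 14 and 1 in yaf9d and at 12 and 53 in wild_type.

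**Figure D5:**
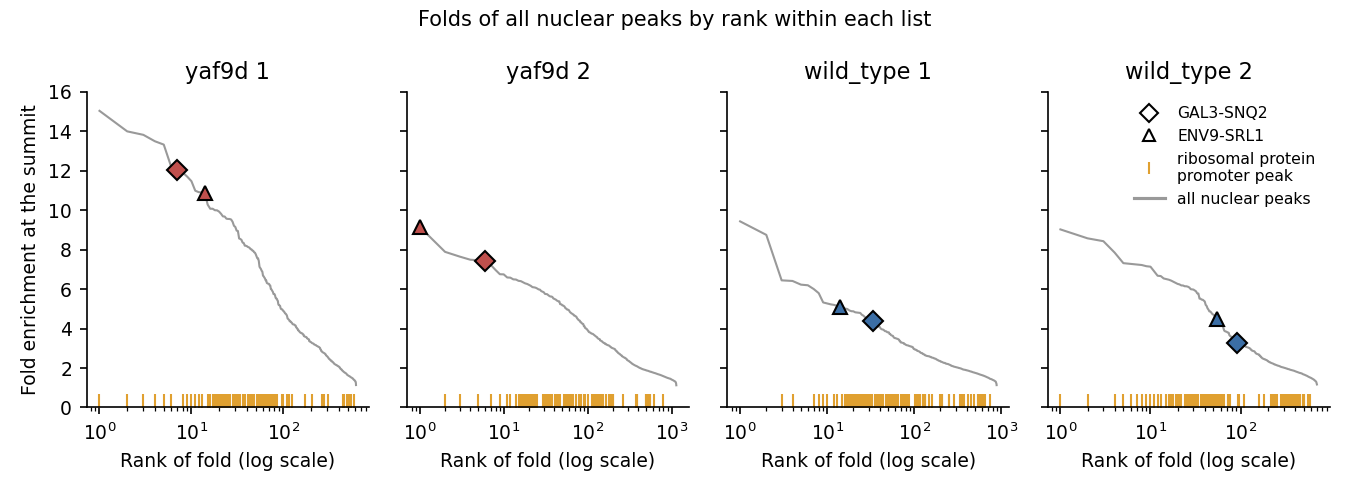
Authors' fold (vertical) against rank of fold on a log axis (horizontal) for all nuclear peaks of each list (grey line), with orange ticks at the ranks of ribosomal protein promoter peaks. The diamond (GAL3-SNQ2) is at rank 7 and 6 in yaf9d and 34 and 92 in wild_type, and the triangle (ENV9-SRL1) at 14 and 1 in yaf9d and 14 and 55 in wild_type.

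Outside ribosomal protein genes the regions had the best mean ranks in yaf9d. They were chosen there for strong peaks in these lists, so their places are a description only. By mean rank over both yaf9d libraries, GAL3 and SNQ2 came at place 1 and ENV9 and SRL1 at place 2 of 376 loci. In wild_type they came at place 11 and, tied, at place 4 of 368 loci. Among peaks outside those genes in single lists, GAL3 and SNQ2 ranked 1 and 3 in yaf9d, and 8 and 37 in wild_type, and ENV9 and SRL1 ranked 2 and 1 in yaf9d, and 6 and 10 in wild_type. The next 3 in yaf9d lay at SDS23 and OLE1 (chromosome VII, 397863 to 398431), at ROX1 with YPR063C and YPR064W (chromosome XVI, 678524 to 679413), and at ARB1 and PHM8 (chromosome V, 224952 to 225777). In wild_type the places before ENV9 and SRL1 went to loci near chromosome ends, on chromosome XII at YLL066W-B from 5423 to 5946 and from 10934 to 11949, and on chromosome XIII from 5326 to 5783. A further such locus, on chromosome VIII from 562124 to 562631, shared the mean rank of 34.5 with ENV9 and SRL1. Loci placed before GAL3 and SNQ2 in wild_type also included those at AGP1 and KCC4 (chromosome III, 78152 to 78801), named after its values were seen, and at ARB1 and PHM8.

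Likeness was measured as the Euclidean distance between the 4 relative folds of shared loci, in log2 units. Each region had the other as its nearest of 250 loci, at 0.61. Both were picked for high folds, so closeness on this measure is partly built in and nothing is read from it. The next nearest to GAL3 and SNQ2 was the locus of SDS23 and OLE1, at 0.61, where OLE1 encodes the fatty acid desaturase. Its folds were 8.50 and 6.97 in yaf9d, and 3.51 and 3.02 in wild_type. ARB1 and PHM8 followed at 0.71, TOS4 with RPL37A and EMG1 at 0.76, and ROX1, the repressor of hypoxic genes, at 0.82 with folds of 8.20 and 7.49 in yaf9d, and 2.91 and 3.64 in wild_type. Nearest to ENV9 and SRL1 after that were ribosomal protein loci, at RPS23B (0.68), RPL37A (0.71), RPS0B (0.74) and RPL31A (0.76). At RPS0B the folds were 10.9 and 7.65 in yaf9d, and 5.27 and 7.28 in wild_type.

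The arrangement of genes around the summit differed between the regions. Of the 218 loci, 89 had their summit between divergent coding genes and 58 inside a coding gene. Among the divergent ones the median of the mean relative fold was 0.28 in yaf9d and 0.23 in wild_type. ENV9 and SRL1 held the highest of these in yaf9d, 1.54, while in wild_type the highest was 1.43 and theirs was 0.92. Loci with summits inside a coding gene had medians of -0.81 in yaf9d and -0.54 in wild_type. GAL3 and SNQ2, counted there because of YDR010C, held the highest in yaf9d, 1.47, and 0.59 in wild_type, where the highest was 1.64. Both highest places rest on folds that served to pick the regions, so they are a description only.

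Genes on either side had weaker peaks than the regions, which were chosen for strong peaks, or none. ESA1, the catalytic subunit of NuA4, DGA1, APC5 and CLP1, the nearest others around ENV9 and SRL1, had 0 peaks in their windows in all 4 libraries. Around GAL3 and SNQ2, RPL4B and PSF1 each had 2 and 1 peaks in yaf9d and 1 and 1 in wild_type. The nearest peak on that side had fold 1.50 in yaf9d replicate 1, and 1.92 and 1.82 in wild_type, and lay 6256 bp or more away. TRP1 had 0 and 1 peaks in yaf9d and 1 and 1 in wild_type. SOK1 had 0 and 2 peaks in yaf9d, and 1 and 1 in wild_type. The nearest peak on the GAL3 side lay 10060 and 3514 bp away in yaf9d and 2326 and 2321 bp in wild_type, with folds from 1.52 to 1.83.

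Other genes of galactose use had a peak about as often as all genes in 3 libraries. Of 12 genes, 2 and 6 had a peak in yaf9d (16.7% and 50%), and 3 and 2 in wild_type (25% and 16.7%). All protein-coding genes gave 17.1% and 27.2% in yaf9d, and 25.3% and 20.9% in wild_type. GAL1, GAL7 and GAL10, which encode enzymes of galactose breakdown, had none in any library, nor did the permease gene GAL2 and the activator gene GAL4. A peak in all 4 libraries was present at PGM1, a phosphoglucomutase, with folds of 3.69 and 3.76 in yaf9d, and 3.20 and 2.93 in wild_type. GAL80, the repressor that Gal3 binds, had folds of 1.61 and 1.46 in yaf9d, and 1.41 and 1.57 in wild_type.

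Drug efflux genes had weaker peaks than SNQ2, which was chosen for its strong peak, or none. Of 24 transporters and regulators, 9 and 7 had a peak in yaf9d (37.5% and 29.2%), and 7 and 5 in wild_type (29.2% and 20.8%). The shares of all genes were 17.1% and 27.2% in yaf9d, and 25.3% and 20.9% in wild_type, near those of the list in all but yaf9d replicate 1. Median folds of those with a peak were 2.35 and 2.53 in yaf9d, and 1.79 and 1.78 in wild_type, beside 2.48 and 1.87 in yaf9d and 1.85 and 1.94 in wild_type for all genes with a peak. PDR16, a lipid transfer protein, had folds of 3.70 and 3.10 in yaf9d, and 1.39 and 1.97 in wild_type. RSB1, which exports sphingoid bases, had 1.77 and 2.53 in yaf9d, and 1.83 and 1.66 in wild_type. PDR5, the major drug pump, named after its values were seen, had 5.17 and 4.71 in yaf9d, against 2.22 in wild_type replicate 1 and no call in replicate 2. Members of the list went both ways. PDR1, YRR1 and PDR10 had a peak in both wild_type libraries and in neither yaf9d library. TPO1 had a peak in both yaf9d libraries and in neither wild_type library.

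Cell wall genes were listed as kin of SRL1. Of 25 mannoproteins and glucan enzymes, 9 and 13 had one in yaf9d (36% and 52%), and 6 and 11 in wild_type (24% and 44%). The shares of all genes were 17.1% and 27.2% in yaf9d, and 25.3% and 20.9% in wild_type, and this difference was not tested. SED1, a stress-induced wall protein, was the 1 member with a peak in all libraries, with folds of 2.29 and 2.47 in yaf9d, and 2.19 and 2.88 in wild_type. CWP2, a wall mannoprotein named after its values were seen, had 4.73 and 5.24 in yaf9d, against no call in wild_type replicate 1 and 1.53 in replicate 2.

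Genes of nucleotide supply and rad53 suppression, tied to SRL1 by its name, had a peak at 5 and 5 of 13 in yaf9d (38.5% in each), and at 5 and 3 in wild_type (38.5% and 23.1%). All genes gave 17.1% and 27.2% in yaf9d, and 25.3% and 20.9% in wild_type. RNR2, a ribonucleotide reductase subunit, had folds of 3.24 and 2.72 in yaf9d, and 2.26 and 2.48 in wild_type. MEC1, the checkpoint kinase, had 1.43 and 1.58 in yaf9d, and 2.004 and 2.07 in wild_type. Of 21 lipid droplet and dehydrogenase genes listed for ENV9, 6 and 6 had one in yaf9d (28.6% in each), and 12 and 7 in wild_type (57.1% and 33.3%), beside the same shares of all genes. No difference between a list and all genes was tested. ERG6, a sterol methyltransferase of lipid droplets, had folds of 4.15 and 3.80 in yaf9d, and 2.47 and 2.87 in wild_type. FAA1 and FAA4, acyl-CoA synthetases, and LDB16, a partner of seipin, had folds from 1.24 to 2.30. The highest fold over all 5 lists was 5.17 (PDR5) and 5.24 (CWP2) in yaf9d, and 3.20 (PGM1) and 3.17 (ECM33) in wild_type. In each library this was below both regions, which were chosen for strong peaks, so nothing is read from that order.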

How the data were processed

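Chromatin immunoprecipitation libraries of myc-tagged Swc4 were available as 1 peak list per library, not pooled. The tools named per the submitters' processing notes are MACS2 (version 2), SAMtools 1.4 and BWA 0.7.15-r1140. Their roles, the control, the threshold and the genome build are not given in those notes. Each deposited list has the authors' fold (a ratio over background), p-value and q-value of the summit, both as −log10. The deposited score was the −log10 q-value times 10, truncated, in 100% of peaks. Genotypes came from the sample titles.

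With Python 3.11.15, numpy, pandas and scipy 1.17.1, peaks on nuclear chromosomes were assigned to genes of RefSeq assembly R64 by 1 bp of overlap, with starts printed 1-based. As a check of the build, 298 summits lay within 300 bp of a tRNA gene's midpoint, 88.3% of them within 100 bp. Their median offset was 24 bp on chromosome IV and -0.75 bp on chromosome XV. This check cannot settle distances to the bp. The fold was taken as pileup plus 1 over background plus 1 and the p-value as a Poisson tail; a whole-number pileup matching within 0.001 was found for 99.5% to 99.9% of peaks. Overlapping peaks were merged into 1726 loci, named by 500 bp promoters. The members and lists were chosen with earlier results of these data known. Named items are the members, 2 genes on each side and up to 4 list members called in all libraries. Also named are the 5 most alike loci of each region and the 5 best loci outside ribosomal protein genes per genotype. Outside this rule, AGP1 with KCC4, PDR1, PDR5, PDR10, YRR1, TPO1, CWP2, ECM33, GAL1, GAL2, GAL4, GAL7 and GAL10 were named after their values were seen. Windows, filters, scalings, merging and left-out replicates were varied. Promoter sequences and motifs are not analysed here.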

Additional observations from a re-analysis of the deposited data

Results flagged for a closer look

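Data outside the comparisons held 1 signal, present in a single library. In yaf9d replicate 2, 39 peaks lay on the mitochondrial chromosome, against 0 in yaf9d replicate 1 and 0 in both wild_type libraries. They touch none of the 4 genes.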

How the results depend on the processing

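Of 72 alternatives, 59 stayed within the spread between replicates or within 1.5 times the count, 13 moved and 0 reversed. All 4 genes kept a peak with 500 bp upstream, with a fold of 2 or more and with a −log10 q of 5 or more. With 1000 bp upstream alone GAL3 dropped out in 3 libraries, and with 50% of the peak or more required inside the window it dropped out in all 4. The yaf9d minus wild_type difference at GAL3 and SNQ2 ranged from 0.60 to 1.16 with a replicate left out and was 1.32 on folds as listed. At ENV9 and SRL1 it ranged from 0.45 to 0.78 with a replicate left out. There it was 1.06 on folds as listed, 0.88 over the list median and 0.42 over the ribosomal protein promoter median; the cause was not tested. The mean rank of SNQ2 in yaf9d was 6.5 by fold and 5 by −log10 q. Without wild_type replicate 1 the mean wild_type rank by fold rested on 92 for SNQ2 and 55 for SRL1, and without wild_type replicate 2 on 34 and 14. Without yaf9d replicate 1 the SRL1 rank in yaf9d was 1, and without yaf9d replicate 2 it was 14.

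Loci higher in both yaf9d libraries numbered 18 of 171 when summits within 150 bp were joined, both regions among them. With a replicate left out the condition is looser, so the count of 34 of 251 could only stay or rise. Loci with each remaining yaf9d value above each remaining wild_type value numbered 49 to 99 of 251. They were 49 and 99 without yaf9d replicate 1 and 2, and 61 and 78 without wild_type replicate 1 and 2. Over all 5 gene lists, members with a peak of fold 2 or more were 19 in yaf9d replicate 2, against 37 with all peaks. They were 9 in wild_type replicate 1, against 33, and 9 in wild_type replicate 2, against 28. At a −log10 q of 5 or more wild_type replicate 1 kept a count of 19. With the replicate block, the mean of differences between same-numbered libraries, the values were 0.88 and 0.62, equal to the unpaired ones by construction. Deviations of same-numbered libraries correlated at -0.042 over the 251 shared loci.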
